A study of Mus musculus with 4 samples.

Results

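The mRNAs of 44 genes of mitosis were followed across the 4 liver arrays of a study of ribosomal protein S6, the product of Rps6. The genes had been listed by name, from the kinases that start mitosis to the proteins that separate the daughter cells, and 43 of them had at least 1 probe set annotated to that gene symbol alone, of 18194 genes measured. Ccnb1, the cyclin B1 gene, had none and was not analysed here. The 43 genes were covered by 92 such probe sets, and each gene was represented by the one whose mean over the 4 arrays was highest.

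Each array held total liver RNA of 1 genotype, combined in equal amounts from 3 mice that were 5 weeks old and labelled as non-fasted males. ΔS6:c-Myc and ΔS6 livers lacked Rps6 through an Albumin-Cre transgene acting on floxed Rps6 alleles, which targets hepatoblasts and so both the hepatocytes and the bile duct cells that come from them, and is incomplete and mosaic. ΔS6:c-Myc and Alb-c-Myc livers carried an albumin-driven c-Myc transgene, which is expressed in hepatocytes. WT livers carry the label wild-type. The paper describes its WT mice as lacking Cre, and names floxed Rps6 alleles for the controls of other assays. The mice were of mixed strain background, and the methods describe only the pools of ΔS6 and WT livers, so the other 2 arrays were placed by their labels. Values are log2 expression values after RMA and quantile normalization, with array medians between 6.85 and 6.88. Rps6 itself was checked first on 9 probe sets that match Rps6 together with the pseudogene Rps6-ps4, whose position against the deleted exons was not examined. Their median log2 ratio was -1.76 for ΔS6:c-Myc over Alb-c-Myc and -0.29 for ΔS6 over WT, and all 9 were below 0 in both. Probe sets with Rps6 as their single symbol numbered 2, and they disagreed. One was at 5.64 in ΔS6:c-Myc, 6.30 in ΔS6, 8.13 in Alb-c-Myc and 7.10 in WT, lower on both arrays with the deletion, whereas the other was at 8.25 in ΔS6:c-Myc, 7.48 in ΔS6, 5.65 in Alb-c-Myc and 6.01 in WT, higher on both. Where these 2 lie against the deleted exons was not examined either. With 1 array for a genotype no difference has a replicate check, no p-value is given, and a gene was called only when it differed by at least 2-fold, a log2 ratio of 1.0. The number of arrays limits the precision of every value. The spread between probe sets of 1 gene served as a yardstick for single genes. It was a standard deviation of 0.27 for ΔS6 over WT and 0.24 for ΔS6:c-Myc over Alb-c-Myc. It was taken from probe sets with a mean of at least 8, brighter than those of many mitosis genes. Some mitosis genes, such as Cdc20, differed far more between their probe sets. The yardstick does not measure the spread between mice.

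Mitosis begins when cyclin-dependent kinase 1, bound to A-type and B-type cyclins, phosphorylates its targets. Chromosomes then condense, their kinetochores attach to spindle microtubules under the watch of the spindle checkpoint, the anaphase-promoting complex marks cyclins and securin for destruction, and the cell divides. Most mRNAs of this programme are made only in dividing cells, late in the cell cycle, and hepatocytes of a grown liver rarely divide. Many of their promoters carry a cell cycle genes homology region (CHR), which is bound by MuvB complexes that repress in resting cells as DREAM and activate with B-Myb and FoxM1 in dividing ones, together with CCAAT boxes, which are bound by NF-Y.

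Promoters are shown because many of the 43 genes had these 2 elements in common. RefSeq promoters of build GRCm38.p6, from 250 bases before to 50 bases after the annotated start, were matched by symbol for 36 of the 43 genes. The CHR was searched as TTTGAA or TTCGAA and the CCAAT box as CCAAT, each on both strands, so that TTCAAA and ATTGG are their reverse forms. A CHR and a CCAAT box can share at most 1 base. CCAAT and ATTGG can share 2, as in the Ube2c boxes that begin at -186 and -183, and both were counted. The windows below are the 120 bases before the start, written in the direction of the gene, of the 7 genes with a CHR wholly within the 60 bases before it, taking the first start in the table for the 2 genes with more than 1, Ect2 and Prc1. The CHR of Prc1 overlapped its first start and began 30 bases before its second, and it is not shown. Capitals mark each CHR and each CCAAT box.
Cdk1: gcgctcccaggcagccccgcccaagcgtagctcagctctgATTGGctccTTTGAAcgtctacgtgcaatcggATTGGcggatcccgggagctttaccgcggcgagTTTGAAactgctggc
Cks1b: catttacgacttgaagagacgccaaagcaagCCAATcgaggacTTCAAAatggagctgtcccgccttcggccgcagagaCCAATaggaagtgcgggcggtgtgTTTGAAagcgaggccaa
Top2a: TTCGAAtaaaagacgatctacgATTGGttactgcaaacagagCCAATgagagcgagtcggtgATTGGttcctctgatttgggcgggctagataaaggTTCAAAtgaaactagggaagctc
Kif11: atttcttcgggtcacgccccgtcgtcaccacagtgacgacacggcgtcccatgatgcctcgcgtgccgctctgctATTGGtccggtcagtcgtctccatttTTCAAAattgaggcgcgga
Cdc20: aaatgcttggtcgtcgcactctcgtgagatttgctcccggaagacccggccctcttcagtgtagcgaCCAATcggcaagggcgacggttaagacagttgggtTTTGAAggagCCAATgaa
Ube2c: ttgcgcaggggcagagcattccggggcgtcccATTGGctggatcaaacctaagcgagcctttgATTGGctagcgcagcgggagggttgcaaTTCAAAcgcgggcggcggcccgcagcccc
Espl1: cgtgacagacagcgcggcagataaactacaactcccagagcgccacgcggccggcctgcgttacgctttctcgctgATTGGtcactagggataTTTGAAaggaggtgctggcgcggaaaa

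The Cdk1 window lies at chr10:69352913-69353032 on the minus strand, the Cks1b window at chr3:89418292-89418411 on the minus strand and the Top2a window at chr11:99024190-99024309 on the minus strand. Those of Kif11 and Cdc20 lie at chr19:37376262-37376381 on the plus strand and at chr4:118437344-118437463 on the minus strand. The Ube2c window lies at chr2:164769809-164769928 on the plus strand, and that of Espl1 at chr15:102296173-102296292 on the plus strand. In Cdk1 the hexamer nearest the start began 15 bases before it, and a CCAAT box began 33 bases further upstream. In Ube2c those distances were 29 and 28 bases, and in Espl1 27 and 17 bases. All 7 windows had a CCAAT box upstream of the CHR, 17 to 35 bases from first base to first base.

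A CHR hexamer was found in 28 of 36 promoters of mitosis genes (77.8%), against 2175 of 14453 promoters of all measured genes (15%) and 19.4% of the 27025 promoters in the table. A CCAAT box was found in 28 of 36 promoters (77.8%), against 38.2% of those of all measured genes, and at least 2 boxes were found in 20 of 36 (55.6%), against 13.5%. Both elements were present in 25 of 36 (69.4%), against 6.13%. The E2F octamers TTTGGCGC and TTTCGCGC, searched on both strands, were found in 1 of 36 promoters (2.78%), against 1.29% of measured genes. Among related genes, a CHR was present in 57.6% of 33 spindle and cytokinesis promoters, 53.3% of 30 kinetochore promoters, 22.6% of 31 DNA replication promoters and 12.1% of 33 promoters of cyclins, kinases and kinesins with other roles. The shortest distance in a promoter from a CHR to a CCAAT box upstream of it had a median of 28 bases over 25 genes. A CHR whose nearest upstream CCAAT box lay 25 to 45 bases from it, a range set after the positions had been seen, occurred in 13 of 36 promoters (36.1%) and in 0.685% of those of measured genes. Short words match by chance, and a match is not a binding site.

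**Figure D1:**
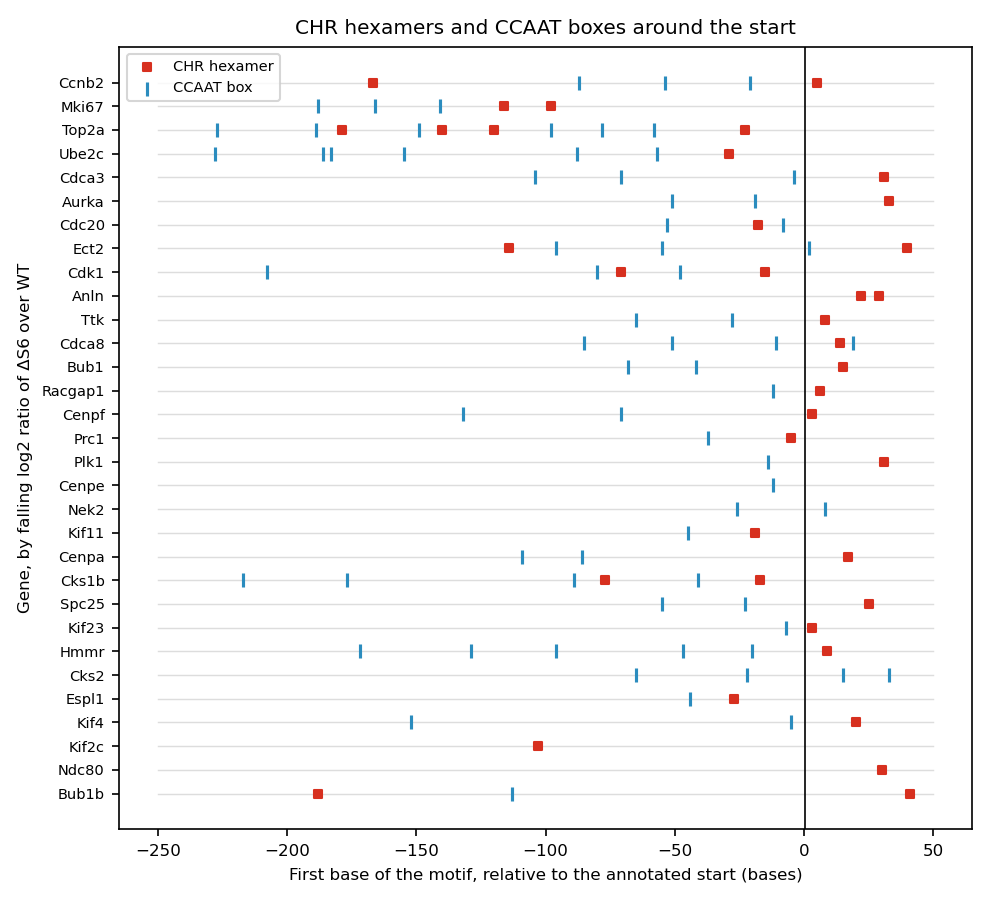
First base of each CHR hexamer (red squares) and CCAAT box (blue ticks) in bases from the annotated start, for the 31 measured mitosis genes with at least 1 match, ordered from the highest to the lowest log2 ratio of ΔS6 over WT. Most CHR hexamers lie within 50 bases of the start, on either side, with CCAAT boxes upstream of them, in genes of high and of low ratio alike.

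High ratios were found both with and without a CHR. Of the 28 genes with a CHR, 19 were 2-fold or more above WT in ΔS6, with a median log2 ratio of 1.73, and of the 8 without one 7 were, with a median of 1.56. Espl1, whose window holds both elements close to the start, had a ratio of 0.55, against 2.53 for Ube2c and 2.66 for Top2a.

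The first comparison asked how mitosis mRNAs changed with Rps6 deletion alone. In ΔS6 liver 30 of 43 genes reached 2-fold or more above WT liver and 0 were as far below it. The median log2 ratio of the 43 genes was 1.72. Of all 18194 genes, 7.24% were 2-fold or more higher and 2.54% lower, with a median of -0.05. Ratios of mitosis genes ran from -0.66 for Tpx2 to 2.93 for Ccnb2, and 41 were above 0. The highest of the 4 values was the ΔS6 value in 40 genes, and the lowest was the WT value in 41. The median log2 value over the 43 genes was 7.82 in ΔS6:c-Myc, 8.30 in ΔS6, 7.67 in Alb-c-Myc and 6.80 in WT. Of the 30 genes, 8 had WT values below 6, the level under which values are called dim here and the size of a ratio is uncertain. In whole liver, fewer cells of a kind and less RNA per cell cannot be told apart.

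**Figure D2:**
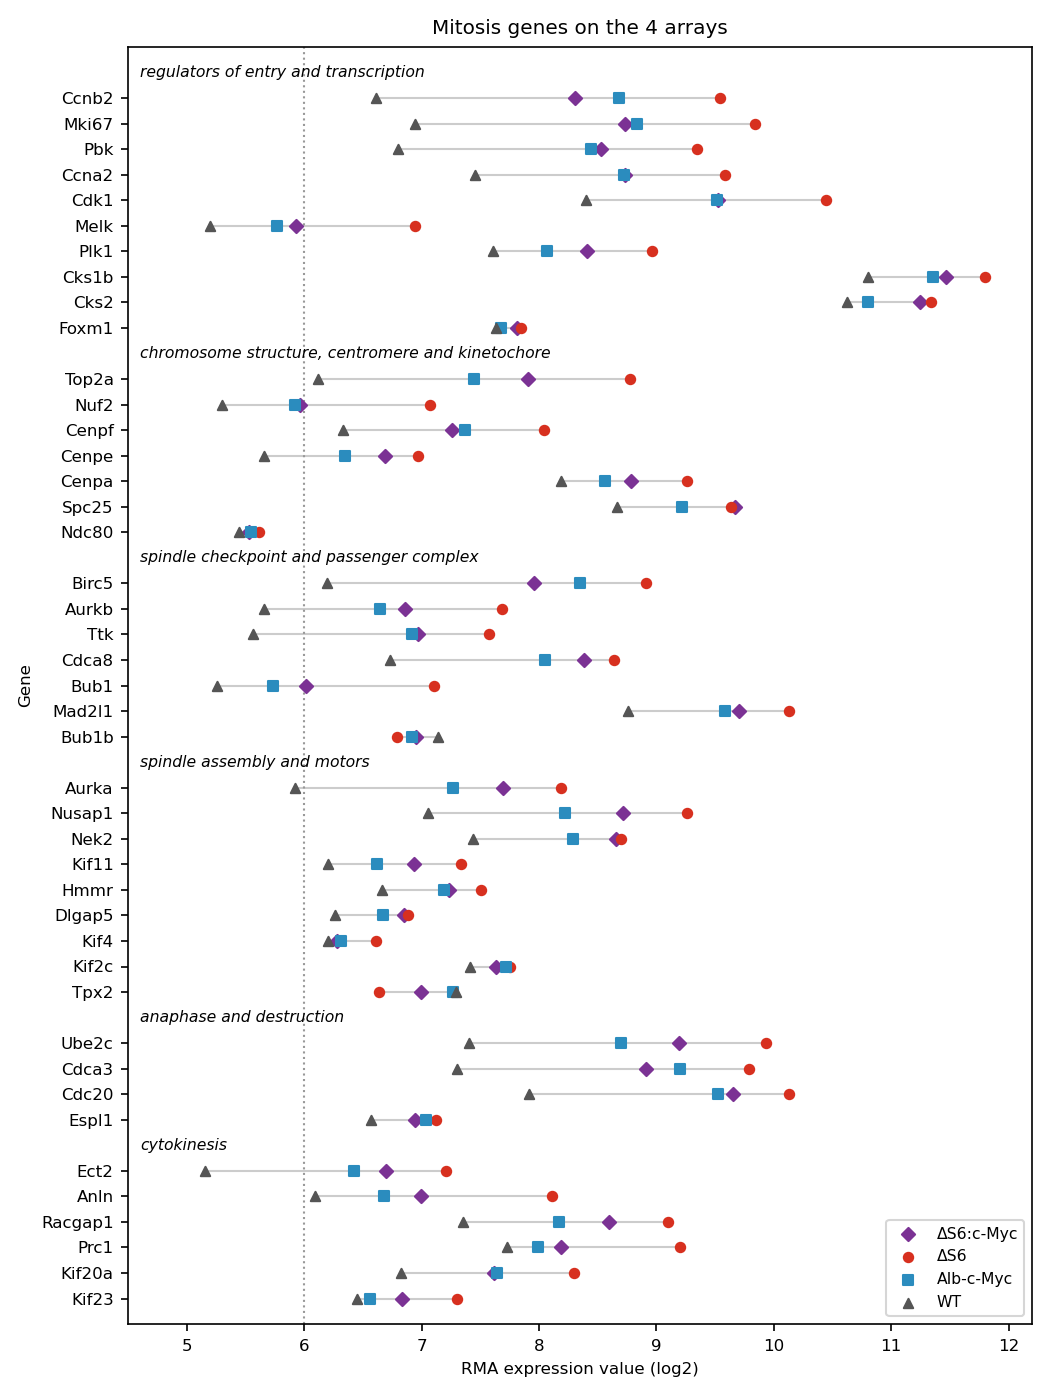
RMA expression values (log2) of the 43 measured mitosis genes, grouped by role, with 1 point for each array of pooled RNA: ΔS6:c-Myc (purple diamonds), ΔS6 (red circles), Alb-c-Myc (blue squares) and WT (grey triangles), and a dotted line at 6, below which values are dim. The ΔS6 point is the rightmost in 40 genes and the WT point the leftmost in 41, and in 40 genes both c-Myc arrays lie between them.

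The regulators of mitotic entry included the largest change of the list, with 7 of 10 genes 2-fold or more above WT in ΔS6 and a median ratio of 1.90. Ccnb2, a B-type cyclin that activates Cdk1, had log2 values of 8.31 in ΔS6:c-Myc, 9.55 in ΔS6, 8.68 in Alb-c-Myc and 6.61 in WT. The ΔS6 value was 7.64 times the WT value, a log2 ratio of 2.93, and the c-Myc arrays lay between. Cdk1, the kinase itself, had 9.53 in ΔS6:c-Myc, 10.44 in ΔS6, 9.51 in Alb-c-Myc and 8.40 in WT, and Ccna2, the A-type cyclin of dividing somatic cells, had 8.73 in ΔS6:c-Myc, 9.58 in ΔS6, 8.73 in Alb-c-Myc and 7.46 in WT. Both stood about 1 log2 unit higher on each c-Myc array than in WT and about 1 unit higher again in ΔS6. Mki67, whose product coats mitotic chromosomes and is the common marker of proliferation, had 8.73 in ΔS6:c-Myc, 9.84 in ΔS6, 8.84 in Alb-c-Myc and 6.95 in WT, and so differed between the extreme arrays by 2.89. Pbk, a mitotic kinase, had 8.53 in ΔS6:c-Myc, 9.35 in ΔS6, 8.44 in Alb-c-Myc and 6.80 in WT, with a ratio of 2.55 for ΔS6 over WT.

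Plk1, the polo-like kinase that acts from entry to cytokinesis, had 8.40 in ΔS6:c-Myc, 8.96 in ΔS6, 8.07 in Alb-c-Myc and 7.61 in WT. Its ratio of 1.36 for ΔS6 over WT was lower than that of the cyclins, and only its ΔS6 value was at least 2-fold above WT. Melk, another kinase of dividing cells, had 5.93 in ΔS6:c-Myc, 6.94 in ΔS6, 5.77 in Alb-c-Myc and 5.19 in WT, so 3 of its 4 values were below 6, and its ratio of 1.75 rests on a dim WT value. Cks1b and Cks2, the small subunits that bind Cdk1, were within 2-fold, with ratios of 1.00, just under the line, and 0.71. Foxm1, the transcription factor that acts at these promoters, had 7.82 in ΔS6:c-Myc, 7.84 in ΔS6, 7.67 in Alb-c-Myc and 7.63 in WT. Its 4 values lay within 0.21 log2 units of each other, which is less than the spread between probe sets, and the other 3 probe sets of Foxm1 gave ratios of 0.71, 0.22 and -0.18.

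Of the genes of chromosome structure, centromere and kinetochore, 5 of 7 were 2-fold or more above WT in ΔS6, with a median ratio of 1.31. Top2a, the topoisomerase that untangles sister chromatids, had 7.91 in ΔS6:c-Myc, 8.78 in ΔS6, 7.45 in Alb-c-Myc and 6.11 in WT, a 6.34-fold difference between ΔS6 and WT. Nuf2, a subunit of the Ndc80 complex that holds microtubules, had 5.97 in ΔS6:c-Myc, 7.07 in ΔS6, 5.92 in Alb-c-Myc and 5.30 in WT, and only its ΔS6 value was above 6. Its partner Spc25 had 9.67 in ΔS6:c-Myc, 9.64 in ΔS6, 9.21 in Alb-c-Myc and 8.67 in WT. Spc25 was the only gene whose highest value was on the ΔS6:c-Myc array, and that value lay 0.04 above the one in ΔS6. Ndc80, the subunit that names the complex, was below 6 on all 4 arrays, with a ratio of 0.17 that says little at that level. The kinetochore proteins Cenpf and Cenpe had ratios of 1.72 and 1.31 for ΔS6 over WT, and Cenpa, the histone H3 variant of centromeres, had 1.07.

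Of the spindle checkpoint and the chromosomal passenger complex, 6 of 7 genes were 2-fold or more above WT in ΔS6, with a median ratio of 1.91. Birc5, or survivin, which anchors the passenger complex, had 7.96 in ΔS6:c-Myc, 8.92 in ΔS6, 8.35 in Alb-c-Myc and 6.20 in WT. Its ΔS6:c-Myc value was 0.39 below its Alb-c-Myc value. Aurkb, the kinase of the complex, had 6.86 in ΔS6:c-Myc, 7.68 in ΔS6, 6.64 in Alb-c-Myc and 5.65 in WT, and Cdca8, its borealin subunit, had 8.38 in ΔS6:c-Myc, 8.64 in ΔS6, 8.05 in Alb-c-Myc and 6.73 in WT. The ratios of these 3 subunits for ΔS6 over WT were 2.72, 2.03 and 1.91. The checkpoint genes Ttk, Bub1 and Mad2l1 had ratios of 2.01, 1.85 and 1.38, of which those of Ttk and Bub1 rest on WT values below 6.

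Bub1b, which encodes the checkpoint protein BubR1, ran the other way on its chosen probe set, with 6.95 in ΔS6:c-Myc, 6.79 in ΔS6, 6.91 in Alb-c-Myc and 7.14 in WT. Its 2 dimmer probe sets were higher in ΔS6 than in WT, by 1.12 and 1.51, so the direction of Bub1b depends on the probe set. Tpx2, which activates Aurora A on the spindle, was similar, with 6.996 in ΔS6:c-Myc, 6.64 in ΔS6, 7.27 in Alb-c-Myc and 7.30 in WT on the chosen probe set and ratios of -0.36, 1.06 and 1.02 on the other 3. These were the only genes of the list with a ratio below 0 for ΔS6 over WT.

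By the chosen probe sets, spindle assembly genes and motors changed least, with 4 of 9 genes 2-fold or more above WT in ΔS6 and a median ratio of 0.84. Aurka, the kinase of spindle poles, had 7.69 in ΔS6:c-Myc, 8.19 in ΔS6, 7.27 in Alb-c-Myc and 5.92 in WT, and Nusap1, which binds spindle microtubules, had 8.71 in ΔS6:c-Myc, 9.26 in ΔS6, 8.22 in Alb-c-Myc and 7.05 in WT. In both the ΔS6 value was more than 4-fold above the WT value, with ratios of 2.27 and 2.20. Kif11, the motor that pushes spindle poles apart, and Nek2, a centrosome kinase, had ratios of 1.14 and 1.26. The other 5 genes, Hmmr, Dlgap5, Kif4, Kif2c and Tpx2, were within 2-fold, but Hmmr, Kif2c and Tpx2 had dimmer probe sets above 2-fold. Their ratios were 1.12, 1.44 and 1.49 for Hmmr, 1.24 and 1.12 for Kif2c, and 1.06 and 1.02 for Tpx2. The place of this role among the 6 thus depends on the probe sets chosen.

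Of the anaphase and destruction genes 3 of 4 were 2-fold or more above WT in ΔS6, with the highest median of the 6 roles, 2.35. Cdc20, which activates the anaphase-promoting complex, had 9.65 in ΔS6:c-Myc, 10.13 in ΔS6, 9.52 in Alb-c-Myc and 7.92 in WT, and Ube2c, the ubiquitin-conjugating enzyme of that complex, had 9.19 in ΔS6:c-Myc, 9.94 in ΔS6, 8.70 in Alb-c-Myc and 7.40 in WT. Cdca3, which in frog egg extracts helps to remove the mitotic brake Wee1, had 8.91 in ΔS6:c-Myc, 9.79 in ΔS6, 9.20 in Alb-c-Myc and 7.30 in WT. In all 3 genes each c-Myc array was more than 2-fold above WT, and ΔS6 was the highest. Espl1, or separase, which cuts cohesin, had 6.94 in ΔS6:c-Myc, 7.12 in ΔS6, 7.04 in Alb-c-Myc and 6.57 in WT, with a ratio of 0.55 for ΔS6 over WT.

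Cytokinesis genes were 2-fold or more above WT in ΔS6 in 5 of 6 cases, with a median ratio of 1.61. Ect2, which activates RhoA at the cleavage furrow, had 6.69 in ΔS6:c-Myc, 7.21 in ΔS6, 6.42 in Alb-c-Myc and 5.15 in WT. Anln, the furrow scaffold anillin, had 6.99 in ΔS6:c-Myc, 8.11 in ΔS6, 6.68 in Alb-c-Myc and 6.09 in WT. Anln stood apart from Ect2 in that its c-Myc values were closer to WT than to ΔS6. Racgap1, Kif20a and Prc1, which build the central spindle, had ratios of 1.74, 1.47 and 1.47, and Kif23, the motor partner of Racgap1, had 0.86.

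The choice of probe set set the size of these changes. Of the 92 probe sets, 44 were 2-fold or more above WT in ΔS6 and 0 lower, against 6.08% and 2.24% of all 34958 probe sets with 1 symbol. Of the 22 that were below 6 on all 4 arrays 1 was 2-fold or more higher, and of the other 70 probe sets 43 were. At least 1 probe set was 2-fold higher in 34 of 43 genes, compared with 30 by the chosen probe set, and in 8.76% of all genes. With the mean of all probe sets of a gene, the median ratio of the 43 genes was 0.99 and 20 genes were 2-fold or more higher, against 5.74% of all genes. The third probe set of Cdc20, with values between 7.74 and 7.85 on the 4 arrays, had a ratio of -0.02, whereas the other 2 had 2.21 and 3.45.

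**Figure D3:**
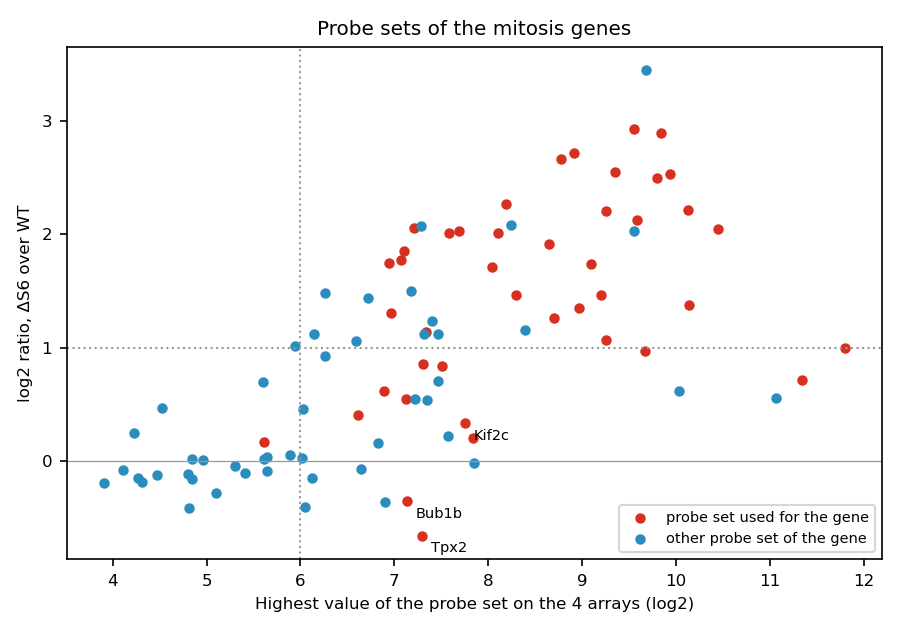
log2 ratio of ΔS6 over WT for each of the 92 probe sets of mitosis genes against its highest log2 value on the 4 arrays, with the probe set used for the gene in red, other probe sets of the same gene in blue, a vertical dotted line at 6 and a horizontal one at 2-fold. Of the 22 probe sets left of 6 only 1 reaches 2-fold, against 43 of the 70 to the right, where the chosen probe sets of Bub1b and Tpx2 lie below 0.

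The WT array stood apart from the other 3 in RNAs outside the list, so Alb-c-Myc was used as a second reference. It is not a neutral one for these genes. In it 16 of 43 were 2-fold or more above WT, with a median ratio of 0.69, against 0.418% of all genes. Lower ratios over Alb-c-Myc than over WT thus cannot be assigned to the WT array alone. Xist, which coats the inactive X chromosome, was at 6.33 in ΔS6:c-Myc, 5.88 in ΔS6, 6.29 in Alb-c-Myc and 11.84 in WT, although all pools are labelled male. All 8 measured pancreatic acinar mRNAs were 2-fold or more lower in ΔS6 than in WT, and 6 of 8 in Alb-c-Myc than in WT. Over Alb-c-Myc, 10 of 43 mitosis genes were 2-fold or more higher in ΔS6 and 0 lower, with a median ratio of 0.68, against 7% of all genes higher and 2.23% lower, with a median of -0.06. The highest of these ratios were 1.42 for Anln, 1.37 for Bub1 and 1.33 for Top2a, and 41 of 43 were above 0. With the mean of all probe sets of a gene, 5 genes were 2-fold or more higher, against 5.69% of all genes.

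Cell type markers also differed between ΔS6 and the other livers. In ΔS6, the markers 2-fold or more above WT were 10 of 11 biliary and progenitor markers, 12 of 13 macrophage markers, 8 of 11 neutrophil markers and 7 of 10 stellate and fibroblast markers, against 0 of 14 hepatocyte markers, 0 of 9 T and NK cell markers and 0 of 9 endothelial markers. Among B and plasma cell markers 2 of 8 were higher, and among erythroid markers 1 of 10 was higher and 2 lower. Of all genes 7.24% were higher and 2.54% lower. The log2 of the summed macrophage level was 14.19 in ΔS6:c-Myc, 15.75 in ΔS6, 13.45 in Alb-c-Myc and 13.66 in WT, and that of the neutrophil level was 11.33 in ΔS6:c-Myc, 15.35 in ΔS6, 10.49 in Alb-c-Myc and 10.57 in WT. For biliary markers it was 12.22 in ΔS6:c-Myc, 14.78 in ΔS6, 11.36 in Alb-c-Myc and 11.34 in WT. Stellate markers summed to 14.46 in ΔS6:c-Myc, 15.42 in ΔS6, 13.95 in Alb-c-Myc and 13.96 in WT, so all 4 lists were highest in ΔS6. Hepatocyte markers summed to 18.17 in ΔS6:c-Myc, 18.20 in ΔS6, 18.28 in Alb-c-Myc and 18.36 in WT. None of the 14 hepatocyte or 13 macrophage markers was below 6 on any array. Dividing cells of any of these types carry mitosis mRNAs, and the part of such cells in the ΔS6 values was not tested.

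The effect of the c-Myc transgene alone was asked by Alb-c-Myc over WT. In Alb-c-Myc liver 16 of 43 genes were 2-fold or more above WT and 0 as far below it, with a median ratio of 0.69. Of all genes 0.418% were 2-fold or more higher and 0.335% lower, with a median of 0.00. Thus 16 of the 76 genes 2-fold or more higher in Alb-c-Myc were mitosis genes, which is 21.1% of the 76 and 37.2% of the 43. By the mean of all probe sets of a gene, 9 mitosis genes were 2-fold or more higher, against 0.313% of all genes. Myc itself was at 11.37 in ΔS6:c-Myc, 8.89 in ΔS6, 11.68 in Alb-c-Myc and 8.33 in WT.

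The largest ratios of Alb-c-Myc over WT were those of Birc5 (2.15) and Ccnb2 (2.07), both past 4-fold, followed by Cdca3 (1.90), Mki67 (1.89), Pbk (1.64) and Cdc20 (1.61). By role, 5 of 10 regulators of entry, 3 of 4 anaphase genes, 3 of 7 checkpoint and passenger genes, 2 of 7 chromosome and kinetochore genes, 2 of 9 spindle genes and 1 of 6 cytokinesis genes were 2-fold or more higher. Prc1 and Kif23, both of cytokinesis, had ratios of 0.26 and 0.12, and that of Kif23 lay within the probe set spread of 0.14. In contrast to ΔS6, no marker of any cell type was 2-fold or more higher in Alb-c-Myc than in WT, and those lower were the pancreatic ones. This comparison has the WT array in common with the one before, so the 2 sets of ratios are not independent.

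With both alterations, 20 of 43 genes were 2-fold or more above WT in ΔS6:c-Myc and 0 as far below it, with a median ratio of 0.93, against 3% of all genes higher and 1.8% lower. The highest were Top2a (1.80), Ube2c (1.79), Mki67 (1.79) and Aurka (1.77), and no gene passed 4-fold. With the mean of all probe sets of a gene, 9 genes were 2-fold or more higher, against 2.11% of all genes.

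**Figure D4:**
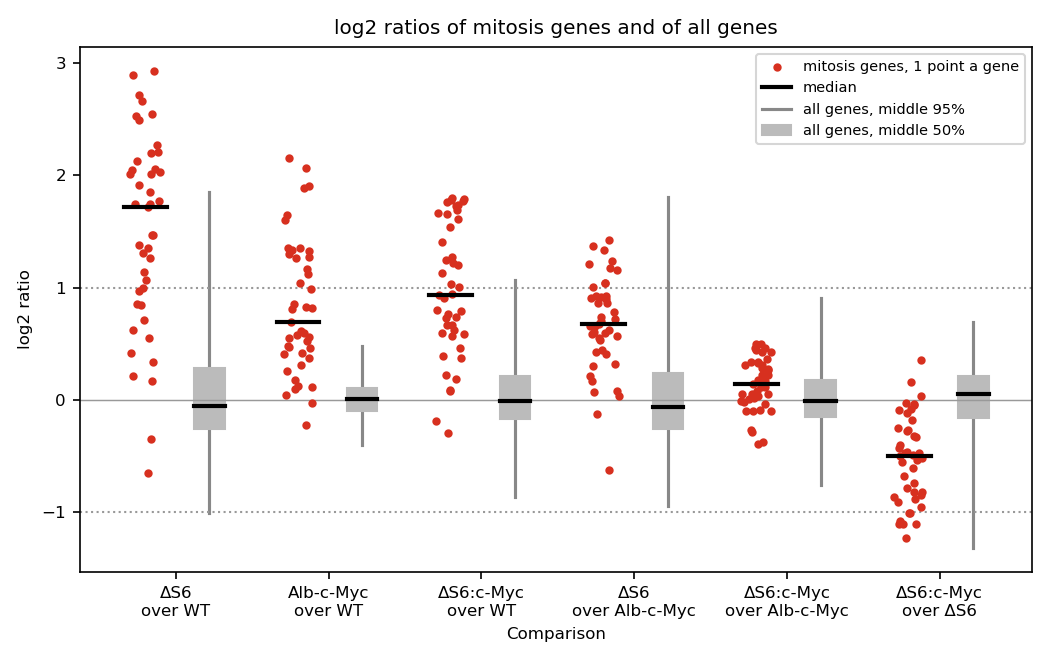
log2 ratios of the 43 mitosis genes (red points, 1 for each gene, black bar at the median) beside all 18194 genes (grey box for the middle 50%, grey line for the middle 95%, black bar at the median) in 6 comparisons of 2 arrays, with dotted lines at 2-fold. The median of mitosis genes is 1.72 for ΔS6 over WT, 0.69 for Alb-c-Myc over WT, 0.14 for ΔS6:c-Myc over Alb-c-Myc and -0.50 for ΔS6:c-Myc over ΔS6.

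Rps6 deletion in the presence of the transgene was asked by ΔS6:c-Myc over Alb-c-Myc. Here 0 of 43 mitosis genes were 2-fold or more higher and 0 lower, with a median ratio of 0.14 and a range from -0.39 for Birc5 to 0.50 for Nusap1. Of all genes 1.99% were 2-fold or more higher and 1.36% lower, with a median of -0.01. Values in ΔS6:c-Myc were above those in Alb-c-Myc for 32 genes and below them for 11, and for 23 genes the ratio was smaller than the spread between probe sets. After Nusap1, the highest were Ube2c (0.49), Top2a (0.46) and Spc25 (0.46). The lowest after Birc5 were Ccnb2 (-0.37), Cdca3 (-0.29) and Tpx2 (-0.27).

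Cdkn1a, the inhibitor of cyclin-dependent kinases that p53 induces, was at 13.50 in ΔS6:c-Myc, 12.57 in ΔS6, 9.70 in Alb-c-Myc and 8.89 in WT. The ratio of Cdkn1a was 3.80 for ΔS6:c-Myc over Alb-c-Myc and 3.68 for ΔS6 over WT, so Cdkn1a was 2-fold or more higher on both arrays with the deletion. Of the 43 mitosis genes, 0 were so in the first of these comparisons and 30 in the second.

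The 2 ratios of the deletion, without and with the transgene, share no array. They also differ in the fall of Rps6 mRNA. The 9 probe sets that match Rps6 and its pseudogene had a median of -0.29 without the transgene and -1.76 with it. The paper reports more recombined Rps6 allele in ΔS6:c-Myc than in ΔS6 livers. The 2 ratios thus do not compare an equal loss of Rps6 mRNA, and what this adds to their difference was not tested. None of the 30 genes 2-fold or more higher in ΔS6 over WT was so for ΔS6:c-Myc over Alb-c-Myc, and all 30 were within 1.5-fold there. Of the 1318 genes of the whole array 2-fold or more higher in ΔS6 over WT, 239 (18.1%) were also 2-fold or more higher for ΔS6:c-Myc over Alb-c-Myc. Subtracting the ratio without the transgene from that with it gave a median of -1.49 over the 43 genes, from -3.31 for Ccnb2 to 0.38 for Bub1b, and of 0.03 over all genes. The difference was below 0 in 41 genes and at or below -1 in 26 of 43, against 4.61% of all genes. Over the 43 genes, which share the arrays and differ in brightness, the ratios showed little relation (Pearson's r 0.05, Spearman's rho 0.06). With the mean of all probe sets of a gene, the median difference was -0.84. The WT array, which stood apart in Xist and pancreatic mRNAs, enters the difference of ratios. Over Alb-c-Myc, the median ratio was 0.68 for ΔS6 and 0.14 for ΔS6:c-Myc. The difference was not tested.

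**Figure D5:**
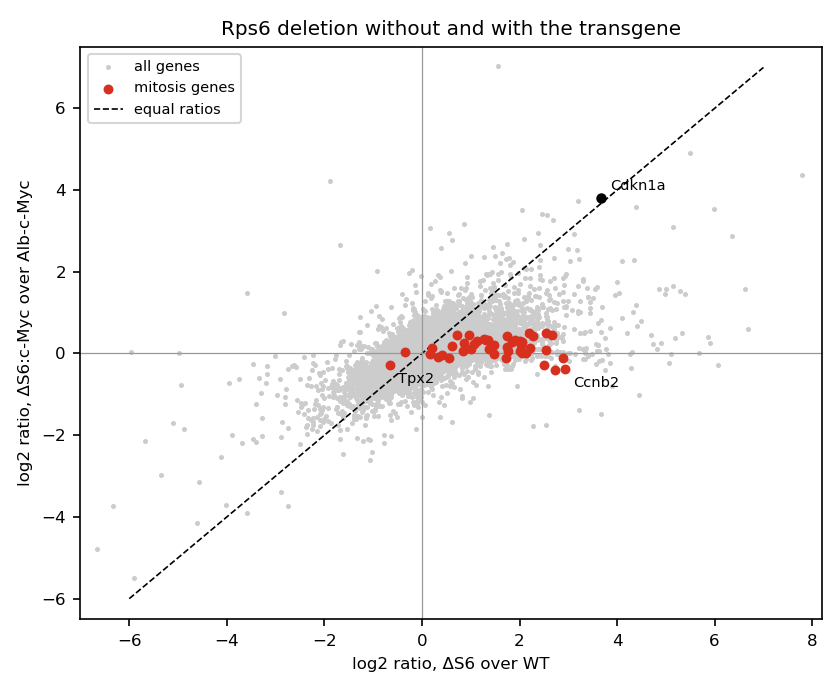
log2 ratio of ΔS6:c-Myc over Alb-c-Myc against that of ΔS6 over WT for all 18194 genes (grey) and the 43 mitosis genes (red), with Cdkn1a in black and a dashed line of equal ratios. The mitosis genes spread from -0.66 to 2.93 along the x axis but lie between -0.39 and 0.50 on the y axis, while Cdkn1a lies near the dashed line.

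Mitosis mRNAs were lower with the transgene than without it in livers lacking Rps6. In ΔS6:c-Myc over ΔS6, 7 of 43 genes were 2-fold or more lower and 0 higher, with a median ratio of -0.50, against 4.29% of all genes lower and 0.769% higher, with a median of 0.05. The 7 were Ccnb2 (-1.24), Anln (-1.11), Mki67 (-1.11), Nuf2 (-1.11), Bub1 (-1.09), Melk (-1.01) and Prc1 (-1.01). Only Tpx2, Bub1b and Spc25 were above 0. Marker mRNAs of other cells were lower too, with 9 of 11 biliary, 11 of 13 macrophage, 8 of 11 neutrophil and 6 of 10 stellate markers 2-fold or more below ΔS6 in ΔS6:c-Myc, against 1 of 14 hepatocyte markers. Their part in the mitosis values was not tested. Rps6 mRNA was not equal on these 2 arrays either. The 9 probe sets that match Rps6 and its pseudogene had a median ratio of -1.31, while those with Rps6 as their single symbol disagreed. What this adds to the mitosis ratios was not tested.

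Genes that work beside the 43 were examined as 9 further lists, none of which holds a member. In ΔS6 over WT, 13 of 38 DNA replication genes were 2-fold or more higher and 1 lower (median 0.78), as were 12 of 38 other spindle and cytokinesis genes with 0 lower (0.40), 8 of 36 other kinetochore genes with 0 lower (0.69), 6 of 21 condensin and cohesin genes with 0 lower (0.24), 3 of 10 G1 cyclins and kinases with 0 lower (0.74), and 2 of 17 anaphase-promoting complex genes with 0 lower (0.33). Of other mitotic entry genes 2 of 16 were higher and 0 lower (0.53), and of DREAM, B-Myb and E2F genes 2 of 20 were higher and 2 lower (0.13). Cyclins, kinases and kinesins with other roles had 2 of 41 higher and 1 lower (0.10). Of all genes 7.24% were 2-fold or more higher and 2.54% lower. The lists with 2 genes higher lay near that share, at 11.8%, 12.5%, 10% and 4.88% in the order given. Each list median was below that of the 43, which were listed with earlier results known. Extremes of these lists included Uhrf1, which maintains DNA methylation at replication (2.07), and the replication initiator Mcm10 (-3.40), Arhgap11a, a RhoA regulator of the furrow (2.20), and Haus4 of the augmin complex (-0.76), Smc2 of condensin (1.99) and the securin gene Pttg1 (-0.31), and Mybl1, a relative of B-Myb (2.36), and the atypical repressor E2f8 (-1.05).

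For ΔS6:c-Myc over Alb-c-Myc at most 2 genes of any of these lists were 2-fold or more higher and at most 2 lower. Of all genes 1.99% were higher and 1.36% lower there. The G1 cyclin Ccnd1 had the highest ratio, 2.46, and its ratio was 1.64 for ΔS6 over WT. Cenpt of the kinetochore had 1.22, Gtse1, a microtubule protein of G2 that also acts on p53, had 1.00, and the replication factor Rfc3 had 1.60, whereas Tk1, the thymidine kinase of S phase, had -1.29. In Alb-c-Myc over WT, 2-fold or more higher were 2 of 36 kinetochore genes, 2 of 38 spindle and cytokinesis genes and 1 of 21 condensin and cohesin genes. So were 1 of 38 replication genes and 0 in the other 5 lists, against 0.418% of all genes.

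Paralogs outside the list, most with roles other than mitosis, served as a contrast of like sequence. In 22 pairs both genes were measured. Of the 22 paralogs 2 were 2-fold or more above WT in ΔS6 and 1 lower, with a median ratio of -0.01. That is near the share of all genes, 7.24% higher and 2.54% lower, while 13 of their 16 mitotic relatives were higher. Top2b had a ratio of 0.10 beside 2.66 for Top2a, Xiap had -0.39 beside 2.72 for Birc5, and Cdk2 had -0.11 beside 2.05 for Cdk1. The exceptions were Plk2, a polo-like kinase that p53 induces, at 1.81 and Nek6, a mitotic kinase related to Nek2, at 1.09, and on the other side the stress kinase Plk3 at -1.28. Plk2 and Plk3 kept these directions for ΔS6:c-Myc over Alb-c-Myc, with ratios of 1.93 and -1.002. The 43 genes lay on 17 chromosomes, with at most 7 on 1 of them, chromosome 2.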

How the data were processed

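Total RNA of 4 liver pools, 1 for each genotype, was hybridized to Affymetrix mouse GeneChips. The deposited log2 expression values were made by the authors with RMA followed by quantile normalization. RMA and affy are named in the notes of the submitters, and the sources used here state no version. Because RMA and quantile normalization force a common distribution, a shift of all genes would not be seen. No detection calls or probe intensities were used. Of 45101 probe sets, 34958 had 1 gene symbol in the platform annotation, 932 had several and 9211 had none, and only the first kind was used, apart from the check of Rps6. The Entrez identifiers of all 43 measured genes were found in the RefSeq gene table.

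Log2 ratios were computed for 6 comparisons of 2 arrays, with 2-fold as the threshold and no test between genotypes. The spread between probe sets of 1 gene was taken from 3379 genes and 8477 probe sets with a mean of at least 8. Any of the 44 genes could be named, together with the highest and lowest gene of each related list among those that reached a value of 6 on any array, the paralog pairs, and Cdkn1a, Myc, Xist and Rps6. The members, lists and motifs were chosen with earlier results of these data known. Groups were taken from the genotype labels. The alternatives were median-centring, a repeated quantile normalization, loess, 2 filters on dim values, thresholds of 1.5-fold and 4-fold, and other choices of probe set, of which the probe set highest in ΔS6 was added after the data had been seen. The counting steps were run on simulated data with shifts well past the threshold and little noise. That checks the code only and not the reliability of the counts. Python 3.11.15, numpy 2.4.6, pandas 2.3.3, statsmodels 0.14.6 and matplotlib 3.10.9 were used.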

Additional observations from a re-analysis of the deposited data

Results flagged for a closer look

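The ratio of the transgenic to the non-transgenic array had opposite signs without and with the Rps6 deletion. The median over the 43 mitosis genes was 0.69 for Alb-c-Myc over WT and -0.50 for ΔS6:c-Myc over ΔS6. Ccnb2 had ratios of 2.07 and -1.24 in these comparisons, and Mki67 had 1.89 and -1.11. For a gene, the gap between these 2 ratios is by arithmetic the difference of ratios given above, -3.31 for Ccnb2. It is therefore the same contrast of the 4 arrays and not a further observation. The WT array, which stood apart, enters it, and so does the unequal fall in Rps6 mRNA. Each ratio rests on 1 array of a genotype, and the difference was not tested.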

How the results depend on the processing

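Over 18 counts and medians and the median difference of ratios, 214 alternative values were computed. Of these, 183 stayed within 1.5 times of the count or within the spread between probe sets of the median, 31 moved further and 0 changed sign. Many of the 183 are counts of 0 that stayed at 0. A fall from 30 to 20 genes higher in ΔS6 over WT, with the mean of all probe sets, was also within that limit. The tally is thus a loose measure of stability. With the mean of all probe sets of a gene, the median ratio of ΔS6 over WT was 0.99, that of Alb-c-Myc over WT was 0.51, the median difference of ratios was -0.84, and the genes at least 2-fold higher numbered 9 in ΔS6:c-Myc over WT, 5 in ΔS6 over Alb-c-Myc and 9 in Alb-c-Myc over WT. With the median of all probe sets, the median of ΔS6 over WT was 1.02 and the difference -0.85. The counts were 11 in ΔS6:c-Myc over WT and 6 in ΔS6 over Alb-c-Myc, against 2.32% and 6.04% of all genes. Leaving out probe sets named _x_at, _s_at or _a_at left 35 genes. There the median of ΔS6 over WT was 1.14, that of Alb-c-Myc over WT was 0.46 and the difference was -0.82. Higher were 18 genes in ΔS6 over WT (6.68% of all genes so filtered) and 10 in ΔS6:c-Myc over WT (2.57%). So were 6 in ΔS6 over Alb-c-Myc (6.52%) and 10 in Alb-c-Myc over WT (0.35%). With the probe set highest in WT, the median for ΔS6 over WT was 1.38. Among the 28 genes with a mean of at least 7, the median for Alb-c-Myc over WT was 0.95. Of them 5 were higher in ΔS6 over Alb-c-Myc (8.75% of all such genes) and 3 lower in ΔS6:c-Myc over ΔS6 (5.01%). At 4-fold, 16 genes were higher in ΔS6 over WT (1.98% of all genes) and 2 in Alb-c-Myc over WT (0.044%). None was higher in ΔS6:c-Myc over WT (0.368%) or in ΔS6 over Alb-c-Myc (1.94%), and 0 were lower in ΔS6:c-Myc over ΔS6 (0.841%). At 1.5-fold, 32 were higher in ΔS6:c-Myc over WT (8.97% of all genes) and 28 in ΔS6 over Alb-c-Myc (13.4%). Lower were 18 in ΔS6:c-Myc over ΔS6 (9.35%), 1 in ΔS6 over Alb-c-Myc (6.54%) and 1 in ΔS6 over WT (7.06%). The other normalizations moved none of these values that far. The cause of the differences between probe sets of a gene was not tested. No array was left out, since each genotype has 1. No paired analysis was possible because the groups compared share fewer than 2 replicate numbers. The WT array enters 3 of the 6 comparisons, and what sets it apart enters all of them. Detection limits were not measured, so ratios of dim probe sets are uncertain in size.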
